A study of Mus musculus with 24 samples.

Results

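The comparison described here is that of 2 single treatments of Ocy454 cells at 8 h, in 6 of the 24 libraries of the series. Ocy454 is a conditionally immortalised mouse line of osteocytic cells derived from bone. One treatment is held by the 3 libraries whose deposited tables carry the letter L (h8 L) while their titles (8hD) and library names say 1,25D, the active vitamin D hormone 1,25-dihydroxyvitamin D. It is set against the 3 libraries whose tables carry the letter D while their titles (8hL) and library names say LPA, lysophosphatidic acid. They were chosen by these codes alone, and they are called L-coded (titled 1,25D) and D-coded (titled LPA) because the file letters and the titles are exchanged between them. The other 8 h libraries, 3 with both agents and 3 with vehicle, and the same groups at 2 h are used where they bear on this comparison. No genotype, clone, passage or dose is given in the sources used here, and no label tells whether the 3 libraries of a group are separate cultures. The p-values therefore measure the spread between libraries of the same group, taken over all 24 libraries, which may be technical.

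LPA is a bioactive lysophospholipid that acts on a family of G protein-coupled receptors, through which it activates ERK kinases and calcium release, with the actin-sensitive transcription factors SRF, MRTF and YAP downstream. The hormone 1,25D binds the vitamin D receptor, which pairs with a retinoid X receptor on paired hexamer sites in DNA and switches on its own inactivation by the 24-hydroxylase Cyp24a1. In osteocytes both agents are studied for the production of FGF23, the bone hormone that lowers blood phosphate.

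Cyp24a1, the vitamin D 24-hydroxylase and the classical target of the receptor, had 0, 1 and 0 counts in the L-coded libraries (titled 1,25D) and 25, 48 and 29 counts in the D-coded libraries (titled LPA). The libraries with both agents had 35, 28 and 24 counts and those with vehicle 1, 0 and 0. The D-coded libraries were thus like those with both agents, and the L-coded ones like vehicle, for this gene. The ratio of summed counts, L-coded over D-coded, was 0.0101 with a 95% exact interval of 0.000253 to 0.0575, which covers counting error only, and its inverse was 99.1. Vdr, the vitamin D receptor, had 70.6, 74.3 and 71.9 CPM in the L-coded libraries, against 247, 259.8 and 256 CPM in the D-coded libraries, with 134, 112 and 130.1 CPM in vehicle, where CPM are counts scaled to library size with the TMM factors of edgeR. The groups did not overlap, and the log2 fold change, L-coded minus D-coded, was -1.81 (SE 0.08, adjusted p = 2.22e-13). Against vehicle Vdr was lower in L-coded libraries (-0.80, adjusted p = 4.69e-07) and higher in D-coded libraries (1.02, adjusted p = 3.86e-09). Klhl33, a Kelch-family gene, had 5.24, 4.90 and 5.95 CPM in the L-coded libraries, against 78.7, 97.2 and 84.6 CPM in the D-coded libraries, with 6.38, 5.21 and 5.95 CPM in vehicle. Expression of the vitamin D target therefore goes against the titles and with the file letters, and the direction of each difference below holds for the codes as given.

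The 6 libraries held 32.80 to 33.50 M estimated counts assigned to genes, with 21889 to 23144 genes detected and 11.8 to 14.0% of counts from mitochondrial genes. The 3 vehicle libraries at 8 h had 10.1 to 16.9% from mitochondrial genes, and the part of this spread in the comparisons with vehicle was not tested. Replicates differed from each other beyond sampling noise, with a chi-square per degree of freedom of 6.54 to 8.11 among L-coded, of 15.8 to 36.9 among D-coded and of 24.9 to 118 among 8 h vehicle libraries. The median SD of log2 CPM was 0.10 among L-coded and 0.172 among D-coded libraries. On the main axis of within-group variation, vehicle replicates 2 and 3 at 8 h lay at the ends and D-coded replicates 1 and 2 on opposite sides. As for the osteocytic label, Dmp1, a matrix phosphoprotein of osteocytes, had 71, 64 and 67 counts in L-coded and 86, 80 and 78 counts in D-coded libraries. Sost (sclerostin) and Mepe were near 0, with 1 and 2 counts in all for Sost in L-coded and D-coded libraries. Mepe had none in either group. Other listed osteocyte genes, such as Gja1 and Phex, were detected and are given below. Lists of markers for skeletal muscle, fat, cartilage, endothelium and blood cells with macrophages had 3 to 4 tested members each. None was called as different between L-coded and D-coded libraries, beside 17.6% of all tested genes. For cartilage 0 to 1 rose when a library was left out. These calls do not tell whether such cells were present.

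A total of 16424 genes were tested in 1 edgeR quasi-likelihood fit over all 24 libraries, and a gene is called when its Benjamini-Hochberg adjusted p is under 0.05. Between the single treatments 2886 genes were called (17.6% of those tested). They split into 1358 that were higher in L-coded libraries (8.27%) and 1528 that were lower (9.30%). At least 2-fold differences were found for 240 genes that were higher (1.46%) and 373 that were lower (2.27%). The values of the 3 L-coded and 3 D-coded libraries did not overlap for 5941 tested genes (36.2%). Against vehicle, L-coded libraries had 1296 genes called higher (7.89%) and 1366 lower (8.32%), and D-coded libraries 1088 higher (6.62%) and 883 lower (5.38%). These counts depended on single vehicle libraries. Without vehicle replicate 2 they were 729 and 789 for L-coded and 648 and 419 for D-coded libraries, and without vehicle replicate 3 they were 1910 and 1498 for L-coded and 2033 and 1269 for D-coded libraries. In these bulk samples, fewer cells of a kind and less RNA per cell cannot be told apart.

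**Figure D1:**
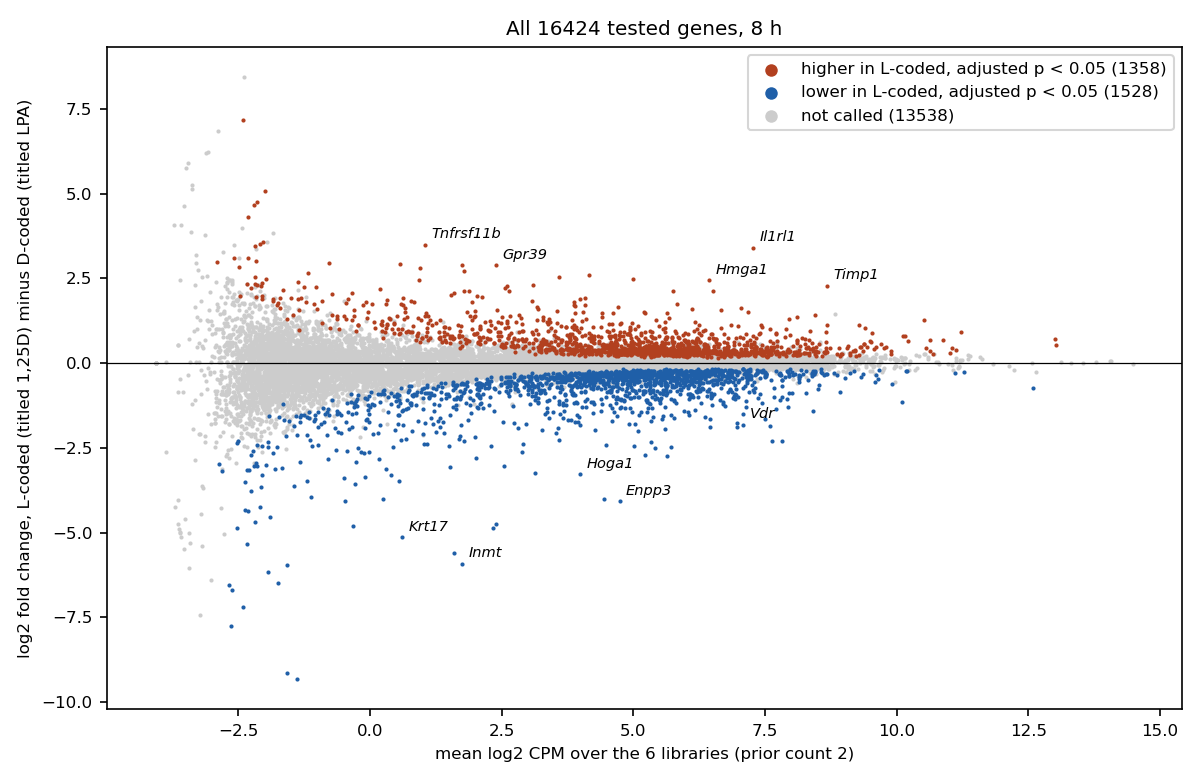
Log2 fold change at 8 h, L-coded (titled 1,25D) minus D-coded (titled LPA), on the y axis against mean log2 CPM over the 6 libraries on the x axis, with 1 point per tested gene. The 1358 genes called higher and 1528 called lower are coloured, and the largest falls, Inmt and Krt17 among the labelled genes, reach further from 0 than the largest labelled rises.

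The largest falls were genes that were near vehicle level in the L-coded libraries and many times higher in the D-coded ones. Among the 15 largest falls, taken from genes with a name, at least 1 CPM on average and no overlap between the groups, L-coded libraries differed from vehicle by the test for 3: Olfm2 at -2.23, Itga8 at -1.77 and Elfn1 at 1.78 on the log2 scale. D-coded libraries were above vehicle for all 15, beside 6.62% of all tested genes, also with any 1 vehicle library left out. The call for Elfn1 was lost without vehicle replicate 1 or 2, and Clca2 was called without replicate 1. The 2 sides of this statement share the same vehicle libraries. Its genes were picked by the same L-coded and D-coded values, which favours a D-coded level above vehicle.

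Enpp3, an ectonucleotide pyrophosphatase of the cell surface, had 6.73, 6.24 and 6.47 CPM in the L-coded libraries, against 114, 105 and 107 CPM in the D-coded libraries. The groups lay far apart, with vehicle at 6.33, 7.32 and 5.48 CPM, and the log2 fold change was -4.07 (SE 0.12, adjusted p = 3.64e-16). Hoga1, a mitochondrial aldolase of hydroxyproline breakdown, had 4.98, 4.59 and 5.65 CPM in the L-coded libraries, against 49.4, 48.8 and 49.7 CPM in the D-coded libraries, a log2 fold change of -3.28 (SE 0.11, adjusted p = 2.76e-15). Here too the L-coded libraries were at the level of vehicle, which averaged 5.62 CPM.

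A group of 3 genes of one-carbon and methyl metabolism fell together. Cbs, cystathionine beta-synthase, which feeds homocysteine into cysteine synthesis, had 0.298, 0.487 and 0.437 CPM in the L-coded libraries, against 20.4, 19.2 and 20.02 CPM in the D-coded libraries. Its log2 fold change was -5.60 (SE 0.18, adjusted p = 2e-15), and vehicle averaged 0.541 CPM. Bhmt, betaine-homocysteine methyltransferase, which remakes methionine, had 0.179, 0.0304 and 0.175 CPM in the L-coded libraries, against 3.90, 3.40 and 3.82 CPM in the D-coded libraries, and fell by 4.81 on the log2 scale. Inmt, a methyltransferase of indoles and other amines, had 0.507, 0.304 and 0.408 CPM in the L-coded libraries, against 26.5, 23.8 and 23.98 CPM in the D-coded libraries. All 3 were close to absent in the L-coded libraries, and Inmt had a log2 fold change of -5.92 (SE 0.26, adjusted p = 2.77e-13). These genes were grouped after their values were seen.

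Among genes of cytoskeleton, membrane and adhesion, Krt17, an epithelial keratin, averaged 0.227 ± 0.0703 CPM in L-coded and 8.20 ± 0.535 CPM in D-coded libraries (SD, n = 3 each), a log2 fold change of -5.15 (SE 0.35, adjusted p = 3.47e-10). Elfn1, a leucine-rich repeat membrane protein of synapses, averaged 0.950 ± 0.491 CPM in L-coded and 27.8 ± 3.31 CPM in D-coded libraries. Its log2 fold change was -4.86 (SE 0.36, adjusted p = 1.46e-09). Tnni1, slow skeletal troponin I, had a log2 fold change of -4.08, Itga8, an integrin alpha chain, -3.39, Olfm2, a secreted olfactomedin, -4.0, and Clca2, a chloride channel regulator, -3.35. Eya2, a transcriptional coactivator and phosphatase, had -3.12, and Prrt4 had -3.29. Mrgprd, a G protein-coupled receptor known from sensory neurons, had no count in any L-coded library and 82, 100 and 66 counts in D-coded libraries. Set against a floor of 3 counts over the group, it was at least 80.3-fold lower in L-coded libraries, and vehicle had 2, 0 and 0 counts.

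**Figure D2:**
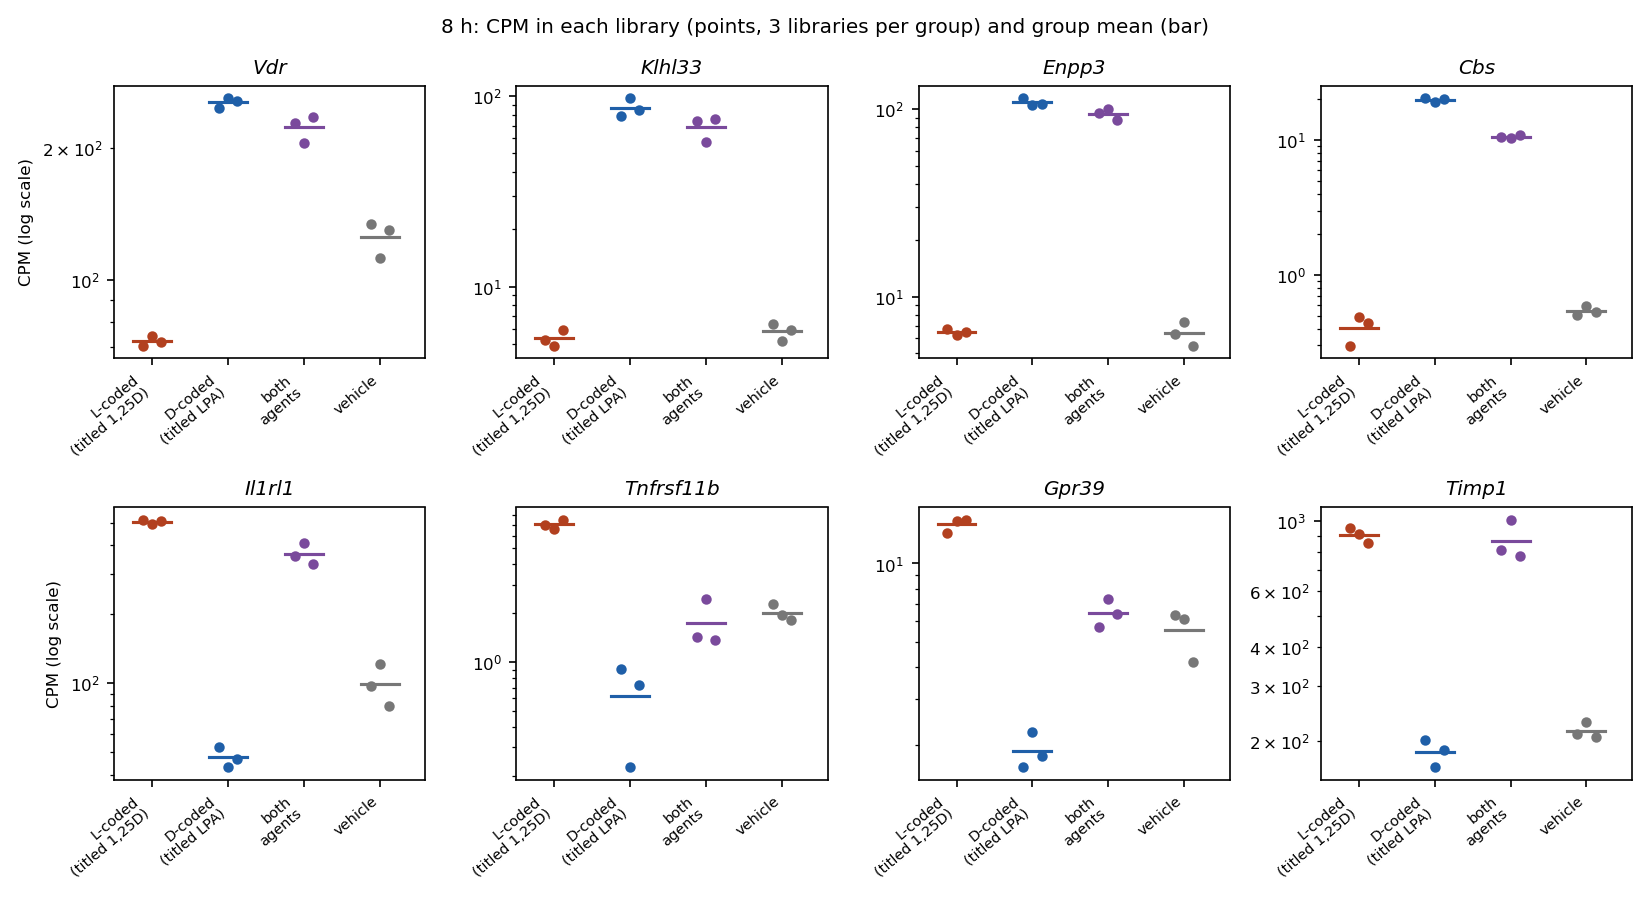
CPM on log axes for 8 genes in each 8 h library, by group on the x axis, with points for the 3 libraries and bars for group means. Vdr, Klhl33, Enpp3 and Cbs are lowest or near vehicle in L-coded libraries and have their highest means in D-coded ones, and Il1rl1, Tnfrsf11b, Gpr39 and Timp1 have their highest means in L-coded libraries and their lowest in D-coded ones.

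Most of the largest rises moved away from vehicle in both groups. Of the 15 largest rises, all were above vehicle in the L-coded libraries by the test, beside 7.89% of all tested genes. In the D-coded libraries 12 were below vehicle, beside 5.38% of all tested genes, the exceptions being Sema7a, Hmga1 and Timp1. The genes were picked by the same L-coded and D-coded values, which favours such counts. As before, both counts also rest on the same 3 vehicle libraries. With any 1 of them left out the 15 were still above vehicle in the L-coded libraries, and the number below vehicle in the D-coded libraries was 10 to 12, Tspan11 and Dynap losing the call without replicate 1 or 2.

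Il1rl1, the receptor for interleukin 33, had 514, 493 and 508 CPM in the L-coded libraries, against 52.6, 43.1 and 46.98 CPM in the D-coded libraries. Vehicle lay between them with 97.3, 121 and 79.5 CPM, and the log2 fold change was 3.41 (SE 0.12, adjusted p = 6.16e-15). Il33, its ligand, had 16.1, 14.5 and 16.4 CPM in the L-coded libraries, against 5.25, 4.53 and 5.89 CPM in the D-coded libraries, a log2 fold change of 1.58 (SE 0.17, adjusted p = 3.06e-07). Ligand and receptor were thus both higher in L-coded libraries, the receptor with the larger difference.

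Tnfrsf11b, osteoprotegerin, the decoy receptor that blocks RANK ligand, had 7.003, 6.57 and 7.49 CPM in the L-coded libraries, against 0.909, 0.226 and 0.729 CPM in the D-coded libraries. The log2 fold change was 3.50 (SE 0.32, adjusted p = 3.84e-08), with vehicle at 2.28, 1.96 and 1.82 CPM. Tnfsf11, RANK ligand itself, which drives osteoclast formation, had 0.805, 0.669 and 0.641 CPM in the L-coded libraries, against 3.69, 2.66 and 3.76 CPM in the D-coded libraries. It moved the other way, with a log2 fold change of -2.25 (SE 0.29, adjusted p = 5.31e-06) and vehicle at 0.485 CPM. Il34, a ligand of the colony-stimulating factor 1 receptor, averaged 9.75 ± 1.01 CPM in L-coded and 22.2 ± 1.59 CPM in D-coded libraries and fell by 1.19 on the log2 scale. Csf1, the other ligand of that receptor, had 333, 345 and 344 CPM in the L-coded libraries, against 263, 359.8 and 296 CPM in the D-coded libraries, values that overlap, and was not called (0.15, adjusted p = 0.421). Of the 6 tested genes for osteoclast support, 1 rose and 2 fell, beside 8.27% higher and 9.30% lower over all tested genes. The median was -0.48 against -0.02 over all tested genes.

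Timp1, an inhibitor of metalloproteinases, had 949, 911 and 852 CPM in the L-coded libraries, against 201, 165 and 188 CPM in the D-coded libraries, a log2 fold change of 2.29 (SE 0.10, adjusted p = 2.23e-13). Plaur, the urokinase receptor, averaged 40.1 ± 4.10 CPM in L-coded and 18.05 ± 1.80 CPM in D-coded libraries, a log2 fold change of 1.15. Of 8 tested inhibitors and genes of the plasminogen system, 6 rose and 1 fell, beside 8.27% higher and 9.30% lower over all tested genes. Their median was 0.76. Of 17 tested metalloproteinases, 2 rose and 7 fell, with a median of -0.27 and values from -1.84 to 3.52. Over both groups of genes 8 fell, and 5 to 8 did when a library was left out. Those that fell included Mmp13, collagenase 3, which had 8.79, 7.70 and 8.04 CPM in the L-coded libraries, against 18.1, 17.04 and 17.8 CPM in the D-coded libraries, with 1.80, 1.52 and 1.62 CPM in vehicle. Mmp13 thus lay above vehicle in both groups and furthest in D-coded libraries, and its log2 fold change was -1.11 (SE 0.17, adjusted p = 4.64e-05). Adamts9, an aggrecanase, had a log2 fold change of -1.84, Mmp16, a membrane-type metalloproteinase, -0.94, and Adamts12 -0.68.

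The remaining large rises were of mixed roles. Gpr39, a zinc-sensing receptor, had 13.1, 14.6 and 14.7 CPM in the L-coded libraries, against 1.64, 2.24 and 1.81 CPM in the D-coded libraries, with 6.36, 6.11 and 4.19 CPM in vehicle, and a log2 fold change of 2.90 (SE 0.16, adjusted p = 1.45e-11). Anxa8, a membrane-binding annexin, averaged 75.1 ± 3.64 CPM in L-coded and 13.4 ± 0.916 CPM in D-coded libraries, a log2 fold change of 2.48 (SE 0.11, adjusted p = 2.01e-13). Hmga1, a chromatin architectural protein, had 206, 197 and 209 CPM in the L-coded libraries, against 30.9, 46.9 and 35.1 CPM in the D-coded libraries, with vehicle at 31.9 CPM, close to the D-coded libraries. Near-identical copies of Hmga1 exist in the genome, so its split of reads is uncertain. Cxcl14, a chemokine, had a log2 fold change of 2.53, Has2, a hyaluronan synthase, 2.32, and Flt1, a receptor for vascular endothelial growth factor, 2.28. Hdac9, a class II histone deacetylase, had 2.91, Ttll11, a tubulin polyglutamylase, 2.93, Tspan11, a tetraspanin, 2.81, and Dynap 2.45.

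**Figure D3:**
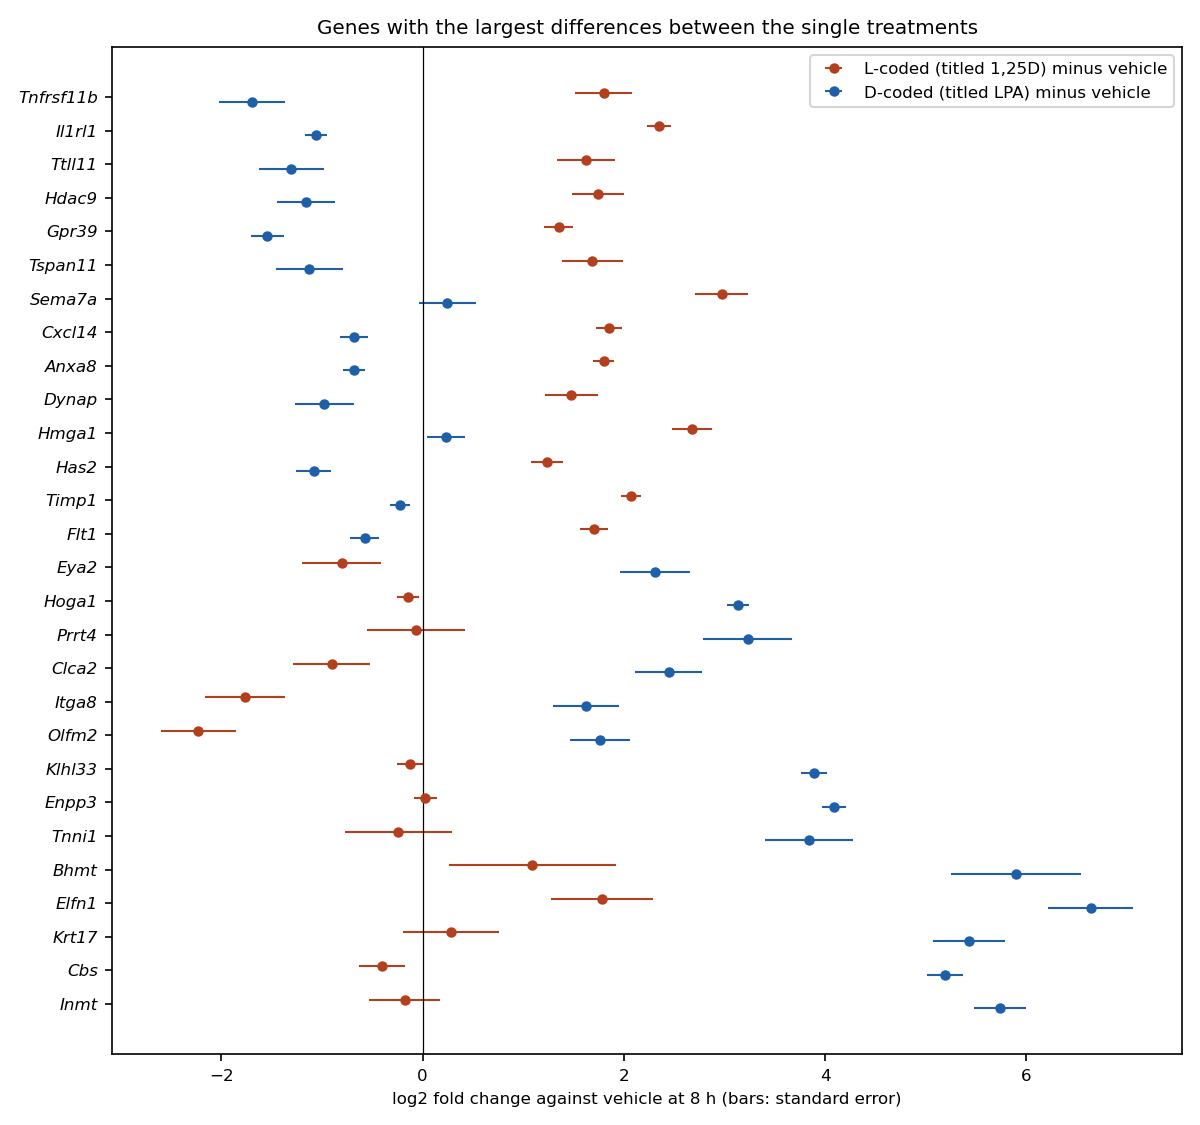
Log2 fold change against vehicle at 8 h on the x axis for 28 of the 30 genes with the largest differences (Mrgprd, with no count in L-coded libraries, is among those left out), with standard errors; L-coded minus vehicle is drawn above D-coded minus vehicle. The 14 rises drawn lie right of 0 in L-coded and mostly left of 0 in D-coded libraries, whereas Enpp3, Klhl33, Cbs and Hoga1 sit near 0 in L-coded libraries and between 3.13 and 5.19 in D-coded ones.

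Promoter sequence was set beside these differences for genes with an entry in RefSeq's table on GRCm38.p6, which spans 250 bases before to 50 bases after the start. Of the 30 genes with the largest differences 23 had an entry. The AP-1 site TGACTCA or its reverse complement TGAGTCA was found in a promoter of 27 of 172 genes called at least 2-fold higher (15.7%) and of 19 of 264 called at least 2-fold lower (7.2%). Over all called genes the shares were 69 of 1036 higher (6.66%) and 67 of 1178 lower (5.69%), against 562 of 11459 tested genes (4.9%) and 1607 of 27025 genes in the table (5.95%). The cyclic AMP response element TGACGTCA, which reads the same on both strands, was in a promoter of 3 of the 172 (1.74%) and 10 of the 264 (3.79%), against 383 tested genes (3.34%). A core of the serum response element, CC then ATATTA then GG, was in none of either set, and in 4 tested genes (0.0349%). Over all called genes it was in 2 of 1036 higher (0.193%) and in none of 1178 lower. The motifs were picked after the gene differences had been seen, and a match describes letters, not a site in use. The promoters of 3 of the 27 AP-1 holders at least 2-fold higher are shown as examples. The first is Gpr39 (chr1:125676746-125677045, plus strand, motif from position -133 relative to the start). The others are Plaur (chr7:24462233-24462532, plus strand, position -69) and Tnfrsf9 (chr4:150927749-150928048, plus strand, position -15). Tnfrsf9 had a log2 fold change of 1.75. Rcan2 (2.14) and Il1rn (1.69), not shown, rose more than Plaur (1.15). None of the 19 holders among the falls is shown. Capitals mark the AP-1 site.
Gpr39: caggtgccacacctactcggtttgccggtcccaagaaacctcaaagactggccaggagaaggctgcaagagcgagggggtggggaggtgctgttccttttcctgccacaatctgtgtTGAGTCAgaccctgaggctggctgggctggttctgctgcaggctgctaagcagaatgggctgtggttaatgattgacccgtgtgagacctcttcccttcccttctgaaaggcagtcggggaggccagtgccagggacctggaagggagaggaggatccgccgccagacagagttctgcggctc
Plaur: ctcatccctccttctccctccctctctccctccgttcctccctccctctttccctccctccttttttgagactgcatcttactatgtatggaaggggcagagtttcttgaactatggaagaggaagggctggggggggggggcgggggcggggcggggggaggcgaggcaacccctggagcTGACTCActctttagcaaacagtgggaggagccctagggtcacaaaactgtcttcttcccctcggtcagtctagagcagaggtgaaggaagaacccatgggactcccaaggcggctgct
Tnfrsf9: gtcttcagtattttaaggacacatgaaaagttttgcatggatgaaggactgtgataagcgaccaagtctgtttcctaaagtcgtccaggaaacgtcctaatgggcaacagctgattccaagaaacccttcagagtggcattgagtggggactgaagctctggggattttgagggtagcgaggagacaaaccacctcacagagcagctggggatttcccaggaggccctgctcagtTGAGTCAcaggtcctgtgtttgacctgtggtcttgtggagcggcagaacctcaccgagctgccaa

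For the vitamin D receptor, the direct repeat of hexamers spaced by 3 bases (DR3; each hexamer a purine, then G, then G or T, then any base but C, then C and A, on either strand) was found in a promoter of 1 of the 172 genes at least 2-fold higher (0.581%) and of 5 of the 264 at least 2-fold lower (1.89%). Over all called genes it was in 10 of 1036 higher (0.965%) and 10 of 1178 lower (0.849%), shares near the 99 of 11459 tested genes (0.864%) and 260 of 27025 genes in the table (0.962%). These are few genes, and distal sites lie outside the window. Enpp3 (chr10:24836146-24836445, minus strand) and Hoga1 (chr19:42045620-42045919, plus strand, motif from position -119) are shown as the holders with the largest falls; capitals mark the DR3 match, which in Enpp3 lies after the start.
Enpp3: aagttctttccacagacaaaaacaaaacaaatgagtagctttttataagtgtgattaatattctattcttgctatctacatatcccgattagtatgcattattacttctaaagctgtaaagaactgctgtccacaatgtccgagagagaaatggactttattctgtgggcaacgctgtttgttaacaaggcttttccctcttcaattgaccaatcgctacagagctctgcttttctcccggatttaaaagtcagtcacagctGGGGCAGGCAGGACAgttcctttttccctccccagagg
Hoga1: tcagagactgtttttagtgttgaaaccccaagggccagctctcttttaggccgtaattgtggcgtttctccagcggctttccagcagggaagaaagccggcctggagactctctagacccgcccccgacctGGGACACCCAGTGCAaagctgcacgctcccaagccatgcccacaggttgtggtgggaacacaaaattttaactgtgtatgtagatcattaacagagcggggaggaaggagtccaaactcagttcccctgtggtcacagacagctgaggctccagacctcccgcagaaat

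Genes of the vitamin D receptor list were mostly lower in the L-coded libraries. Of 24 tested members 13 fell and 3 rose, beside 9.30% lower and 8.27% higher over all tested genes. The median was -0.96 against -0.02 over all tested genes. Members were chosen with earlier results of these data known, so the counts are a description only. The receptor itself, Cyp24a1 and 11 of 18 tested targets fell, Enpp3, Cbs and Klhl33 among them. Fst, follistatin, which binds activins, had 17.3, 18.4 and 18.2 CPM in the L-coded libraries, against 86.8, 91.5 and 93.8 CPM in the D-coded libraries, with 11.5, 12.5 and 12.02 CPM in vehicle. This amounted to a log2 fold change of -2.33 (SE 0.07, adjusted p = 8.99e-16). Gprc5a, an orphan receptor, had 68.04, 68.5 and 68.1 CPM in the L-coded libraries, against 227, 231 and 236 CPM in the D-coded libraries, and its L-coded values were near the vehicle mean of 64.1 CPM. Spp1, osteopontin, a phosphoprotein of bone matrix, had 764, 714 and 718 CPM in the L-coded libraries, against 1822, 1447 and 1623 CPM in the D-coded libraries. With vehicle at 256, 295 and 265 CPM, it was above vehicle in both groups, and the log2 fold change between them was -1.16 (SE 0.10, adjusted p = 7.95e-09). Thbd, thrombomodulin, had a log2 fold change of -1.09. The 3 that rose included Cd14, a co-receptor for lipopolysaccharide, at 0.62 (SE 0.13, adjusted p = 0.00111), and Nfatc1, a calcium-regulated transcription factor, at 0.80 (SE 0.20, adjusted p = 0.00674).

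Of 18 tested genes tied to FGF23 and phosphate 4 rose and 2 fell, beside 8.27% higher and 9.30% lower over all tested genes, with a median of -0.05. With a library left out 2 to 4 rose and 1 to 2 fell, with the compared groups alone 6 rose and 4 fell, and with length-scaled counts 2 rose and 2 fell. Fgf23 itself had 0, 0 and 1 counts in L-coded and 0, 3 and 1 counts in D-coded libraries, a ratio of 0.257 with an exact interval of 0.00523 to 2.60, so no difference was detectable at this depth. Enpp1, which makes the mineralisation inhibitor pyrophosphate, had 12.5, 13.3 and 14.2 CPM in the L-coded libraries, against 44.03, 42.8 and 44.3 CPM in the D-coded libraries. Vehicle was at 7.51, 7.04 and 4.39 CPM, below the values of both groups, and the log2 fold change was -1.71 (SE 0.16, adjusted p = 4.47e-08). Alpl, alkaline phosphatase, which degrades pyrophosphate, had 1.52, 1.13 and 1.02 CPM in the L-coded libraries, against 2.49, 2.04 and 2.68 CPM in the D-coded libraries, a log2 fold change of -0.97 (SE 0.26, adjusted p = 0.00987). This call was lost without L-coded replicate 2 (-0.90, adjusted p = 0.0519) or replicate 3 (-0.86, adjusted p = 0.0577).

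Phex, an endopeptidase whose loss raises FGF23, had 0.805, 0.761 and 1.40 CPM in the L-coded libraries, against 0.205, 0.510 and 0.408 CPM in the D-coded libraries. The groups did not overlap, with a log2 fold change of 1.39 (SE 0.43, adjusted p = 0.0294). Its call was lost without the filter on low counts (adjusted p = 0.0578), without L-coded replicate 3 (1.05, adjusted p = 0.165) and without D-coded replicate 1 (1.13, adjusted p = 0.118) or 3 (1.45, adjusted p = 0.0678). Il12a, the p35 subunit of interleukins 12 and 35, had 0.656, 0.639 and 0.729 CPM in the L-coded libraries, against 1.08, 0.934 and 1.49 CPM in the D-coded libraries. Its values did not overlap, but it was not called (-0.79, adjusted p = 0.14). Fam20c, the kinase that phosphorylates FGF23, had 11.8, 11.4 and 10.6 CPM in the L-coded libraries, against 6.65, 9.54 and 6.56 CPM in the D-coded libraries and was not called in this fit (0.57, adjusted p = 0.141). The protease Furin (0.09), the phosphate transporter Slc20a2 (-0.09), the phosphate exporter Xpr1 (-0.07) and the pyrophosphate transporter Ank (-0.32) were not called either, though Ank was with the compared groups alone (adjusted p = 0.0442).

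Of the 5 tested LPA receptors 1 was called, beside 17.6% of all tested genes. Lpar1 had 46.1, 48.95 and 42.2 CPM in the L-coded libraries, against 34.5, 32.8 and 33.1 CPM in the D-coded libraries, and vehicle had 49.3, 53.1 and 43.96 CPM. The D-coded libraries were the low ones, and the log2 fold change was 0.45 (SE 0.09, adjusted p = 0.000714). Lpar2 (0.05), Lpar3 (-0.63), Lpar4 (-0.03) and Lpar6 (-0.14) were not called. On the TPM scale, which is per length, Lpar1 was the most abundant in both groups with means of 27.8 in L-coded and 17.6 in D-coded libraries. It was followed by Lpar2 (5.17 in L-coded and 5.28 in D-coded), Lpar4 (3.13 and 3.37), Lpar6 (1.11 and 1.28) and Lpar3 (0.0635 and 0.104). Of 17 tested receptors and enzymes of LPA metabolism, 3 rose and 2 fell, with a median of 0.09, and the risers numbered 1 to 3 when a library was left out. Plpp3, a phosphatase that degrades LPA outside the cell, had 25.8, 24.4 and 27.3 CPM in the L-coded libraries, against 58.1, 70.9 and 64.3 CPM in the D-coded libraries, a log2 fold change of -1.32 (SE 0.10, adjusted p = 2.42e-09). Agpat3, which acylates LPA, had a log2 fold change of -0.70 (SE 0.13, adjusted p = 0.000393). Enpp2, autotaxin, which makes LPA, at 0.33 (SE 0.10, adjusted p = 0.0174), and Gpat3, at 0.45 (SE 0.14, adjusted p = 0.0297), were the other risers. The call for Enpp2 was lost without L-coded replicate 2 or 3 or D-coded replicate 2 or 3 (adjusted p = 0.0667 to 0.111), and that for Gpat3 without L-coded replicate 1 or 3 or D-coded replicate 2 or 3 (adjusted p = 0.0661 to 0.152).

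Immediate early genes, which are switched on by growth factor signals and include many transcription factors, were partly higher in L-coded libraries. Of 29 tested members 11 rose and 2 fell, beside 8.27% higher and 9.30% lower over all tested genes, with a median of 0.28. Fosl1, an AP-1 subunit, had 60.3, 65.02 and 60.8 CPM in the L-coded libraries, against 21.2, 21.7 and 22.2 CPM in the D-coded libraries. The vehicle mean of 18.8 CPM was close to the D-coded libraries, and the log2 fold change was 1.51 (SE 0.09, adjusted p = 4.4e-11). Egr2 had 19.1, 23.5 and 17.7 CPM in the L-coded libraries, against 7.89, 6.37 and 6.39 CPM in the D-coded libraries, a log2 fold change of 1.54 (SE 0.11, adjusted p = 5.39e-10). Nr4a1, an orphan nuclear receptor, averaged 30.6 ± 2.05 CPM in L-coded and 8.26 ± 1.06 CPM in D-coded libraries, and Klf6, a zinc finger factor, 112 ± 6.38 CPM in L-coded and 57.5 ± 2.997 CPM in D-coded libraries. Both were called, with log2 fold changes of 1.89 and 0.96. Egr1, with 215, 213 and 197 CPM in the L-coded libraries, against 117, 166 and 136 CPM in the D-coded libraries, was not called (0.57, adjusted p = 0.105), nor were Egr3 (0.68, adjusted p = 0.0564) and Fos (0.28, adjusted p = 0.339). The 2 that fell were Jun (-0.65, adjusted p = 0.0437) and Arc (-0.55, adjusted p = 0.0255). Without D-coded replicate 2 both were lost, Jun at -0.44 (adjusted p = 0.26) and Arc at -0.37 (adjusted p = 0.194), and each was lost without any of the 3 L-coded libraries too. Jun was also lost without D-coded replicate 3 (-0.72, adjusted p = 0.0595).

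Feedback genes of the ERK pathway and EGF ligands split in both directions, 10 rising and 5 falling of 28 tested, with a median of 0.27. With a library left out 8 to 11 rose and 4 fell, and over all tested genes 8.27% were higher and 9.30% lower. Hbegf, a ligand of the EGF receptor, had 7.87, 9.68 and 6.85 CPM in the L-coded libraries, against 1.67, 2.12 and 2.31 CPM in the D-coded libraries, a log2 fold change of 2.00 (SE 0.12, adjusted p = 9.81e-11). Egfr, the receptor, moved the other way with 84.9, 88.9 and 84.6 CPM in the L-coded libraries, against 159, 170.2 and 177 CPM in the D-coded libraries. The difference was -0.97 (SE 0.07, adjusted p = 1.5e-09) on the log2 scale. Etv4, an ETS factor downstream of ERK, averaged 12.7 ± 0.899 CPM in L-coded and 2.72 ± 0.549 CPM in D-coded libraries, a log2 fold change of 2.22. Errfi1, an inhibitor of the EGF receptor, had 0.79. The phosphatases Dusp6, which acts on ERK, and Dusp1 fell. Dusp6 had 34.3, 38.1 and 37.5 CPM in the L-coded libraries, against 72.6, 64.5 and 65.2 CPM in the D-coded libraries, with 21.5, 24.3 and 23.2 CPM in vehicle, so that both groups were above vehicle and D-coded libraries further, with a log2 fold change of -0.88 (SE 0.08, adjusted p = 1.8e-08). Dusp1 had a log2 fold change of -1.08 (SE 0.12, adjusted p = 4.14e-07).

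Actin and contractile genes driven by SRF and MRTF were higher in L-coded libraries for 12 of 25 tested members and lower for 2. The shares over all tested genes were 8.27% higher and 9.30% lower, and the median of the list was 0.28. Tagln, transgelin, had 577, 571 and 571 CPM in the L-coded libraries, against 238, 195 and 211 CPM in the D-coded libraries, on either side of the vehicle mean of 288 CPM. Its log2 fold change was 1.42 (SE 0.10, adjusted p = 1.2e-09). Tagln2 had a log2 fold change of 0.91, and Wdr1, which promotes actin filament disassembly, 0.55. Mrtfa, the coactivator itself, had 68.6, 61.4 and 58.7 CPM in the L-coded libraries, against 109, 155 and 121 CPM in the D-coded libraries, a log2 fold change of -1.03 (SE 0.24, adjusted p = 0.00352). Of 23 tested YAP and TEAD targets 8 rose and 2 fell, with a median of 0.17. Ankrd1 had 79.99, 76.5 and 75.7 CPM in the L-coded libraries, against 43.8, 36.2 and 39.7 CPM in the D-coded libraries, a log2 fold change of 0.95 (SE 0.09, adjusted p = 4.47e-08). Ccn1, a secreted matricellular protein, had 0.89, and F3, tissue factor, 0.71. Gadd45a, a growth arrest gene, fell with 23.1, 22.7 and 22.3 CPM in the L-coded libraries, against 47.6, 44.1 and 43.7 CPM in the D-coded libraries, a log2 fold change of -0.99 (SE 0.08, adjusted p = 3.02e-09). Only 1 member of this list fell when any 1 of the 6 libraries was left out.

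Genes of the NF-kB pathway and chemokines were higher in L-coded libraries for 15 of 29 tested members and lower for 3. The shares over all tested genes were 8.27% higher and 9.30% lower, and the median of the list was 0.55. Ccl2, a chemokine for monocytes, had 113, 119.9 and 107 CPM in the L-coded libraries, against 27.8, 23.4 and 26.2 CPM in the D-coded libraries. Vehicle was between the groups at 44.7, 50.9 and 40.6 CPM, and the log2 fold change was 2.13 (SE 0.12, adjusted p = 1.48e-11). Ccl7, a neighbouring chemokine, averaged 27.7 ± 1.57 CPM in L-coded and 9.68 ± 1.06 CPM in D-coded libraries, and Tnfaip3, the feedback inhibitor A20, 44.2 ± 3.67 CPM in L-coded and 21.1 ± 2.23 CPM in D-coded libraries. Their log2 fold changes were 1.51 and 1.07. Cxcl12, a chemokine for blood progenitors, fell with 766, 778 and 790.0 CPM in the L-coded libraries, against 1236, 1119 and 1209 CPM in the D-coded libraries, a log2 fold change of -0.61 (SE 0.07, adjusted p = 4.44e-07). Nfkbia, an inhibitor of NF-kB, had -0.41.

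In a list of cytokines and receptors of the interleukin 6 and 12 families and their feedback genes, 6 of 20 tested rose and 2 fell. The falls were 1 to 2 when a library was left out, and the median was 0.07. The list also holds Il33 and its receptor Il1rl1, given above. Both are from outside these families and are among the 6 that rose. Osmr, the oncostatin M receptor, had 169, 167 and 177 CPM in the L-coded libraries, against 81.2, 77.01 and 78.7 CPM in the D-coded libraries, a log2 fold change of 1.12 (SE 0.07, adjusted p = 1.78e-10). Socs2, a suppressor of cytokine signalling, fell to 43.7, 43.1 and 47.9 CPM in L-coded libraries, against 56.7, 59.3 and 60.4 CPM in D-coded libraries, a log2 fold change of -0.39 (SE 0.06, adjusted p = 3.94e-05). Of 13 tested prostaglandin genes 3 rose and 2 fell, beside 8.27% higher and 9.30% lower over all tested genes. With any library left out 1 fell. Ptgs1, the constitutive cyclooxygenase, had 63.4, 59.2 and 62.8 CPM in the L-coded libraries, against 22.7, 20.8 and 23.1 CPM in the D-coded libraries, a log2 fold change of 1.48 (SE 0.09, adjusted p = 2.77e-11). Ptgs2, the inducible one, had 0.84, and Ptger4, a receptor for prostaglandin E2, 1.14. Ptges, a synthase of prostaglandin E2, fell with 0.805, 1.22 and 1.02 CPM in the L-coded libraries, against 2.02, 2.49 and 3.15 CPM in the D-coded libraries, a log2 fold change of -1.33 (SE 0.29, adjusted p = 0.00212).

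Among genes that mark osteocytes, 6 of 13 tested rose and 3 fell, beside 8.27% higher and 9.30% lower over all tested genes. The median was 0.23. Tnc, tenascin C, a matrix glycoprotein, had 185, 202 and 188 CPM in the L-coded libraries, against 42.6, 44.3 and 43.4 CPM in the D-coded libraries, a log2 fold change of 2.14 (SE 0.09, adjusted p = 2.23e-13). Cd44, the hyaluronan receptor, had 1.07, and Pdpn, podoplanin, an early marker of dendrite formation, 0.56. Gja1, connexin 43, which couples osteocytes through gap junctions, fell with 115, 117 and 118 CPM in the L-coded libraries, against 221, 192 and 221 CPM in the D-coded libraries. The fall was -0.86 (SE 0.09, adjusted p = 2.38e-07) on the log2 scale. Fbln7, a fibulin, had -1.26, and Pth1r, the parathyroid hormone receptor, -1.17. Of 28 tested osteoblast and bone matrix genes 5 rose and 2 fell, beside 8.27% higher and 9.30% lower over all tested genes. Their median was -0.03. Lox, lysyl oxidase, which crosslinks collagen, had 442, 449 and 470.2 CPM in the L-coded libraries, against 211, 253 and 236 CPM in the D-coded libraries, a log2 fold change of 0.96 (SE 0.12, adjusted p = 3.62e-06). Atf4 (0.60) and Dlx5 (0.93), transcription factors of osteoblasts, were called as well. Col1a1, the chain of type I collagen, had 4538, 4591 and 4305 CPM in the L-coded libraries, against 4465, 5945 and 5021 CPM in the D-coded libraries, values that overlap, and was not called (-0.20, adjusted p = 0.676), nor was Runx2 (-0.27, adjusted p = 0.349). The 5 that rose were 3 to 5 when a library was left out, and the 2 that fell were 0 to 1.

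**Figure D4:**
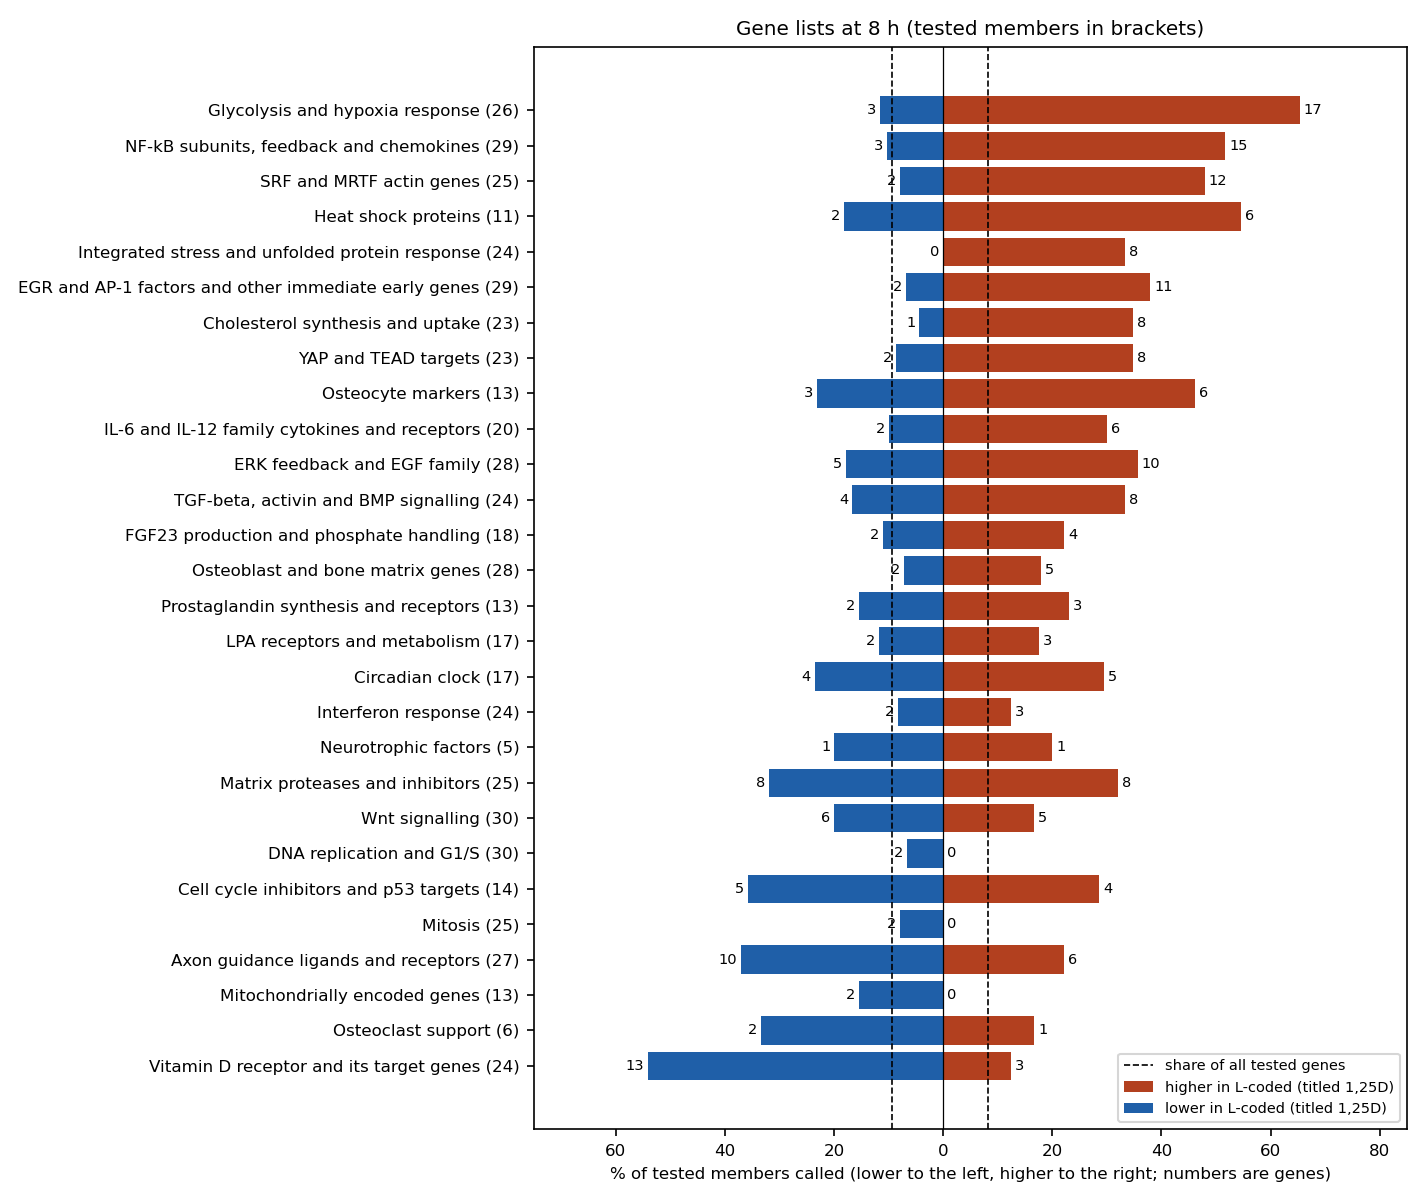
Share of the tested members of each gene list that were called at 8 h, lower in L-coded (titled 1,25D) to the left and higher to the right on the x axis, with lists down the page, gene numbers at the bars and dashed lines at the shares of all tested genes (9.30% lower, 8.27% higher). The list of the vitamin D receptor and its targets holds 13 members to the left, and the glycolysis list 17 to the right.

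Wnt genes moved in both directions, 5 rising and 6 falling of 30 tested, beside 8.27% higher and 9.30% lower over all tested genes. The median was -0.13. Apcdd1, a Wnt inhibitor at the membrane, had 8.55, 9.64 and 10.6 CPM in the L-coded libraries, against 45.9, 60.4 and 48.1 CPM in the D-coded libraries, a log2 fold change of -2.42 (SE 0.20, adjusted p = 8.3e-09). Wif1, a secreted Wnt inhibitor (-2.09), and Lgr6, an R-spondin receptor (-1.82), fell as well. Ccnd1, cyclin D1 (0.59), and Dkk3 (0.42) rose. In the list of TGF-beta, activin and BMP genes, 8 of 24 tested rose and 4 fell, with a median of 0.36. Inhba, the subunit of activin A, had 45.6, 46.98 and 46.1 CPM in the L-coded libraries, against 14.2, 14.2 and 15.8 CPM in the D-coded libraries, a log2 fold change of 1.65 (SE 0.12, adjusted p = 1.5e-09). Follistatin, its binding partner, went the other way as given above. Tgfb3, a TGF-beta ligand (-0.57), and Id3, a BMP target (-0.52), fell.

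Glycolytic and hypoxia-responsive genes were higher in L-coded libraries for 17 of 26 tested members and lower for 3. The shares over all tested genes were 8.27% higher and 9.30% lower, and the median of the list was 0.46. Hk2, hexokinase 2, had 16.03, 19.7 and 18.3 CPM in the L-coded libraries, against 9.59, 7.59 and 7.85 CPM in the D-coded libraries, a log2 fold change of 1.11 (SE 0.12, adjusted p = 6.6e-07). Slc2a1, the glucose transporter GLUT1, had 224, 241 and 227 CPM in the L-coded libraries, against 148, 113 and 113 CPM in the D-coded libraries, a log2 fold change of 0.89 (SE 0.11, adjusted p = 2.26e-06). Ldha, lactate dehydrogenase A, had 1460.1, 1631 and 1469.7 CPM in the L-coded libraries, against 1030.1, 761 and 832 CPM in the D-coded libraries, with 1122, 1364 and 1119.7 CPM in vehicle. Vehicle lay between the groups, and the log2 fold change was 0.80 (SE 0.12, adjusted p = 2.16e-05). Pfkp, the platelet form of phosphofructokinase, rose (0.74), while Pfkm, its muscle form (-0.45), and Pfkfb3, which makes its activator (-1.17), fell.

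Of 23 tested genes in the cholesterol list 8 rose and 1 fell, with a median of 0.21. The list also holds Fasn, Scd1, Scd2 and Srebf1, which serve fatty acid synthesis. Cyp51, a sterol demethylase, had 185, 185 and 187 CPM in the L-coded libraries, against 92.1, 81.03 and 89.5 CPM in the D-coded libraries, a log2 fold change of 1.08 (SE 0.07, adjusted p = 3.61e-10), and Msmo1 had 0.76. Of 24 tested genes of the integrated stress and unfolded protein response 8 rose and none fell, with a median of 0.21. Xbp1, a factor of the unfolded protein response, had 96.3, 93.8 and 87.99 CPM in the L-coded libraries, against 64.4, 54.05 and 55.9 CPM in the D-coded libraries, a log2 fold change of 0.67 (SE 0.08, adjusted p = 2.01e-06), and Psat1, an enzyme of serine synthesis, had 0.49. Of 11 tested heat shock genes 6 rose and 2 fell, with differences between -0.43 and 0.44. These counts were 2 to 7 and 0 to 1 when a library was left out, lowest for the risers without D-coded replicate 2, and none fell under median-of-ratios scaling or with length-scaled counts. Of 24 tested interferon genes 3 rose and 2 fell, shares near the 8.27% and 9.30% over all tested genes, and the falls were 0 to 2 when a library was left out. Irf1, an interferon-regulated factor, had 0.73 and Ifit1 0.51. Of 13 mitochondrially encoded genes none rose and 2 fell, 0 to 2 when a library was left out.

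Cell cycle genes were nearly even between the groups. Of 30 tested genes of DNA replication none rose and 2 fell, Pole (-0.33) and Mcm2 (-0.30), and of 25 mitotic genes none rose and 2 fell (0 to 2 when a library was left out). The medians of both lists were -0.05, and over all tested genes 8.27% were higher and 9.30% lower. Inhibitors of the cycle and p53 targets moved more, 4 rising and 5 falling of 14 tested. Cdkn1a, the inhibitor p21, had 69.5, 79.7 and 73.2 CPM in the L-coded libraries, against 33.3, 31.03 and 31.4 CPM in the D-coded libraries, a log2 fold change of 1.22 (SE 0.10, adjusted p = 1.21e-08). Cdkn1b, the inhibitor p27, went the other way with 94.1, 97.4 and 92.97 CPM in the L-coded libraries, against 158, 162 and 159 CPM in the D-coded libraries. The log2 difference was -0.75 (SE 0.06, adjusted p = 5.6e-09). Cdkn2b, the inhibitor p15, had -0.90, Sesn1, sestrin 1, -1.12, and Gadd45b 0.99. Of 17 tested clock genes 5 rose and 4 fell, and 4 rose and 3 fell when any 1 library was left out. Bhlhe40, a repressor of clock factors, averaged 105 ± 5.90 CPM in L-coded and 52.6 ± 1.58 CPM in D-coded libraries, and Hlf, a clock output factor, 0.891 ± 0.207 CPM in L-coded and 4.70 ± 0.265 CPM in D-coded libraries. Their log2 fold changes were 1.00 and -2.39, and those of Ciart and Per3 1.07 and -0.92.

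Of 27 tested axon guidance genes 6 rose and 10 fell, beside 8.27% higher and 9.30% lower over all tested genes. The median was -0.30. Sema7a, a membrane-anchored semaphorin, had 8.64, 9.68 and 7.93 CPM in the L-coded libraries, against 0.997, 1.70 and 1.25 CPM in the D-coded libraries, a log2 fold change of 2.73 (SE 0.26, adjusted p = 5.26e-08). Sema3e, a secreted semaphorin, had 18.03, 20.9 and 17.2 CPM in the L-coded libraries, against 38.99, 39.1 and 40.7 CPM in the D-coded libraries. Its log2 fold change was -1.08 (SE 0.09, adjusted p = 3.49e-09), and Sema3c had -0.92. Epha4, an ephrin receptor, had -1.79. Of 5 tested neurotrophic factors and receptors 1 rose and 1 fell. Nrg1, neuregulin 1, the one that rose, had 33.6, 31.8 and 36.3 CPM in the L-coded libraries, against 10.5, 16.00 and 13.2 CPM in the D-coded libraries, a log2 fold change of 1.36 (SE 0.11, adjusted p = 7.41e-09).

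The same comparison at 2 h called 1421 genes higher (8.65%) and 1546 lower (9.41%), and the difference between the 8 h and 2 h fold changes was called for 2081 genes (12.7%), 1026 with a higher value at 8 h (6.25%) and 1055 with a lower one (6.42%). Without D-coded 8 h replicate 2 this number was 1207. Of the 29 tested immediate early genes 20 had a lower value at 8 h and none a higher one, with medians of 2.05 at 2 h and 0.28 at 8 h. Egr2 had a log2 fold change of 3.64 at 2 h and 1.54 at 8 h, a difference of -2.09 (SE 0.15, adjusted p = 2.63e-09). Fosl1 had 2.32 at 2 h and 1.51 at 8 h. The glycolysis list went the other way, with 14 of 26 members higher at 8 h than at 2 h and 4 lower, and medians of -0.07 at 2 h and 0.46 at 8 h. Of the 24 vitamin D receptor genes 14 had a lower value at 8 h and 1 a higher one, with medians of 0.00 at 2 h and -0.96 at 8 h. Enpp3 had -0.76 at 2 h and -4.07 at 8 h, a difference of -3.31 (SE 0.16, adjusted p = 1.2e-11), and Fst had 0.29 and -2.33, a difference of -2.63 (SE 0.10, adjusted p = 1.46e-13). Klhl33 was already at -3.45 at 2 h, and its difference between the times was -0.56 (SE 0.18, adjusted p = 0.0446).

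**Figure D5:**
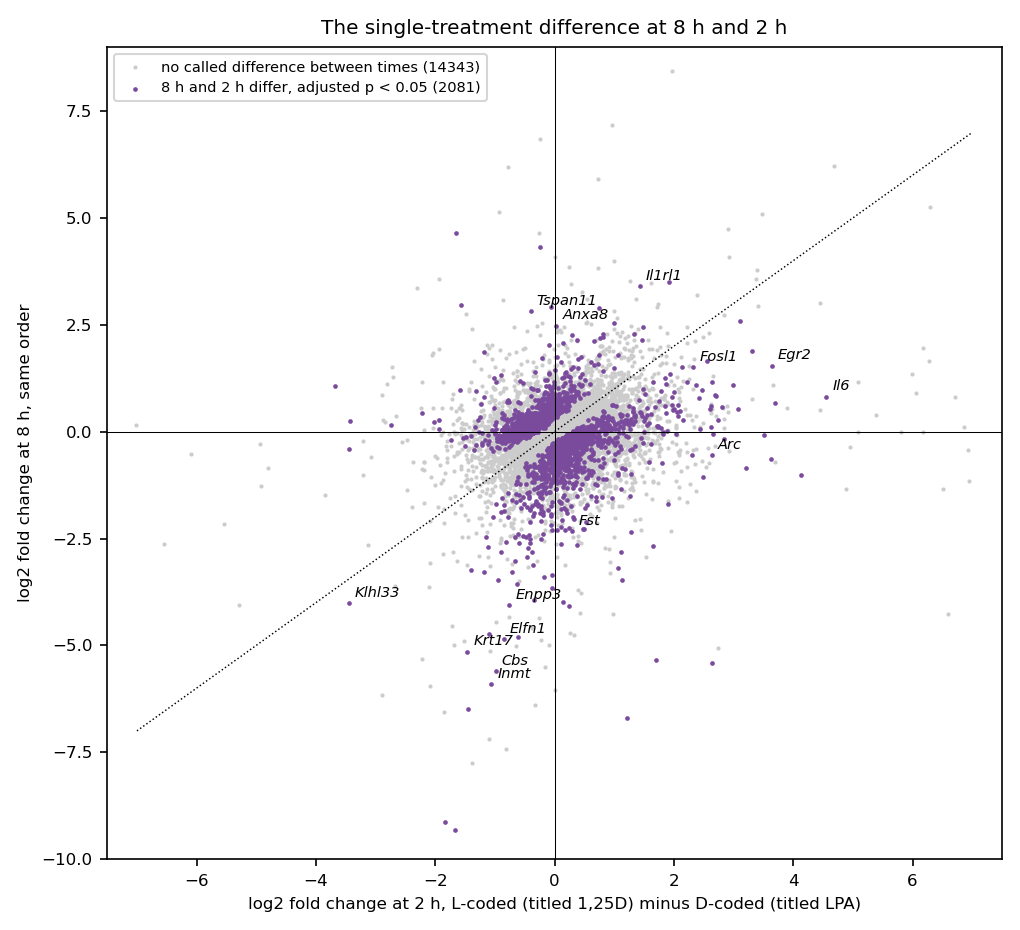
Log2 fold change, L-coded minus D-coded, at 8 h on the y axis against the same at 2 h on the x axis, with 1 point per tested gene and the 2081 genes whose difference between the times was called in colour. Klhl33 lies near the dotted line of equal values, Enpp3, Cbs and Inmt lie far below it with small values at 2 h, and Egr2 and Il6 lie right of it with larger values at 2 h.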

How the data were processed

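RNA-seq of Ocy454 cells was compared between 3 L-coded (titled 1,25D) and 3 D-coded (titled LPA) libraries at 8 h. Per the file headers, the authors deposited estimated counts and TPM per transcript; the submitters' processing notes name the build mm39, with the quantifier, its version and its strand setting not given in the sources used here. Without a known strand setting, reads of a gene and of an antisense partner cannot be told apart. Estimated counts were summed per gene (99.5% matched a gene name through GENCODE M21) and rounded to whole numbers. Totals are given in the report, and intervals cover counting error only. Genes passing filterByExpr (minimum count 10) were fitted with edgeR 4.0.16 (TMM scaling, robust quasi-likelihood F-test, R 4.3.3) over all 24 libraries without covariates, with Benjamini-Hochberg adjustment over all tested genes. The difference between 8 h and 2 h was a contrast of the same fit. Deposited TPM served for levels between genes and for the length-scaled counts.

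Named genes were, among called genes with at least 1 CPM, a gene name and no overlap between the groups, the 15 largest rises and 15 largest falls, the smallest p in each of 33 lists (at most 3 risers and 3 fallers), the 8 largest time differences each way and any list member with its value. Members and lists were chosen with earlier results of these data known. Alternatives used DESeq2 1.42.0, other scalings and filters, the compared groups alone, a replicate block and each library left out. Some items are not reported here. The procedure was tested on simulated data.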

Additional observations from a re-analysis of the deposited data

Results flagged for a closer look

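The difference between L-coded (titled 1,25D) and D-coded (titled LPA) libraries itself differed between 8 h and 2 h, by the test of the difference of fold changes in the same edgeR fit, for 2081 genes. The genes below are those with the largest such differences, given as the 8 h minus the 2 h log2 fold change. Values were positive for Tspan11 at 3.21, Rnf150 at 3.04, Ttll11 at 2.98, Anxa8 at 2.46, Ints9 at 2.22, Gpr39 at 2.16, Il1rl1 at 1.99 and Wnt9a at 1.92. Values were negative for Inmt at -4.85, Cbs at -4.61, Bhmt at -4.19, Olfm2 at -4.14, Elfn1 at -4.01, Il6 at -3.73, Krt17 at -3.68 and Clca2 at -3.31.

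Anxa8 and Tspan11 had no called difference at 2 h, at 0.03 (adjusted p = 0.895) and -0.40 (adjusted p = 0.487), and log2 fold changes of 2.48 and 2.81 at 8 h. Il6, interleukin 6, ran the other way with a log2 fold change of 4.55 at 2 h (adjusted p = 4.34e-07). At 8 h it was 0.82 (adjusted p = 0.47), with 0.119, 0.122 and 0.175 CPM in L-coded and 0.0293, 0.113 and 0.0875 CPM in D-coded libraries. Ints9, a subunit of the Integrator complex, was not called at 8 h (0.28), and its call for the difference was lost when any of 7 libraries was left out. The call for Wnt9a, a Wnt ligand, was lost when any of 9 libraries was left out. Groups of 3 libraries were not tested for single libraries that stand apart.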

How the results depend on the processing

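Between L-coded (titled 1,25D) and D-coded (titled LPA) libraries at 8 h, the number of called genes was 2886 and lay between 2171 (length-scaled TPM counts) and 3080 (compared groups alone) over 6 alternatives, and between 2065 and 2630 when each library was left out. Of 129 called genes named, 123 kept their call in every alternative, and the others, Phex, Alpl, Enpp2, Gpat3, Jun and Arc, lost it in 28 values in all, Jun also with length-scaled TPM counts (adjusted p = 0.0536) and Enpp2 also without the filter on low counts (adjusted p = 0.0607). Gpat3 was also lost without the filter (adjusted p = 0.213), with the compared groups alone (adjusted p = 0.0956) and with length-scaled TPM counts (0.20, adjusted p = 0.626). Uncalled in the report, Egr1, Egr3 and Fam20c were called without the filter and with the compared groups alone (adjusted p = 2.54e-07 to 0.0218), Egr3 also by DESeq2 and median-of-ratios scaling, and Ank with the compared groups alone (-0.32, adjusted p = 0.0442). Leaving out each vehicle library, chosen after seeing the data, is given in the report. Uncalled values near 0 changed sign for Lpar2 without D-coded replicate 1 (-0.02, range -0.02 to 0.19 with a library left out). The same held for Lpar4 without D-coded replicate 3 (0.01, range -0.05 to 0.01). Lpar3, uncalled at -0.63 in the main fit, was at 0.00 without D-coded replicate 3 (range -0.96 to 0.00), so its value depended on that library.

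The Cyp24a1 ratio was 0.00897 to 0.0153 with a library left out, and 0.00983 without TMM scaling, chosen after seeing the data; without L-coded replicate 2 the group has 0 counts and no ratio was computed. The time difference was called for 3374 genes with the compared groups alone (1627 higher, 1747 lower) and for 1354 with length-scaled TPM counts (672 higher, 682 lower). With a library left out it was 1207 to 2592, with 535 to 1557 higher and 672 to 1035 lower. The higher ones changed by more than 1.5 times without D-coded 8 h replicates 1 (1557), 2 (535) and 3 (680), D-coded 2 h replicate 2 (660) and L-coded 2 h replicate 1 (677). The cause was not tested. Of the 16 genes named for it, 10 kept their call throughout; besides Ints9 and Wnt9a, Clca2 lost it with length-scaled TPM counts, Krt17 and Bhmt without L-coded 2 h replicate 1, and Il6 without D-coded 8 h replicate 2.

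No pairing of the samples by replicate number was detected, since deviations of same-numbered 8 h libraries had correlations of -0.038 to 0.023. With 3 libraries a group and little spread among the L-coded ones, pairing could have been missed. With a replicate block 2760 genes were called at 8 h (1282 higher, 1478 lower) and 1920 for the time difference, and Wnt9a lost its call for the time difference (1.85, adjusted p = 0.0509). With 3 libraries a group and no stated separate cultures, depth limits Cyp24a1, Fgf23, Sost and Mepe, whose counts are near 0 in at least 1 group.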
